A study of Rattus norvegicus with 4 samples.

Results

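The genes described here are the interleukins, their receptors, and the cytokines and receptors of the TNF and gp130 groups that share their pathways. They were taken by name from the annotation of a rat Agilent array. A probe belonged to the set when its gene name began with Il and a digit, or was Tnf, Lta, Ltb, Tnfrsf1a, Tnfrsf1b, Lif, Lifr, Osm, Osmr, Cntf, Cntfr, Clcf1 or Il6st. This gave 73 genes out of 35652 gene names on the array, read by 87 of its 41012 probes. The rule used names alone, although the set was chosen with earlier results of these data known. Olfactory ensheathing cells are the glia that enclose olfactory axons on their way into the brain. Such cells from male Fischer rats were grown in culture and sorted by flow cytometry into a p75High population, with much of the neurotrophin receptor p75 on the surface, and a p75Low population, with little of it. Each of 4 biological replicates gave 1 array, on which p75High cDNA was labelled with Cy5 and the paired p75Low cDNA with Cy3, so that every ratio is a paired difference within an array. Per the labels, the sorted cells were 98% pure, their cDNA was amplified by a global PCR, and 250 ng went into each labelling. Both populations came from the same kind of culture, the labels name no treatment beyond the sort, and no array carried the dyes in the opposite order.

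Interleukins and TNF are secreted signals through which immune cells, and also glia and stromal cells, control inflammation. IL-1β and IL-18 are made as inactive precursors that caspase-1 cleaves in the inflammasome, and they act through receptors of the IL-1 family. The IL-6 group, which includes LIF, oncostatin M and CNTF, signals through the shared chain gp130, encoded by Il6st, while the IL-2 and IL-4 groups share the common gamma chain, encoded by Il2rg. In the nervous system microglia and macrophages are well-known sources of IL-1β, IL-18 and TNF, and Schwann cells are a known source of CNTF.

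A single 60-base probe carried most of these measurements, so the probes of the genes that the results turn on are shown first. The 2 Il18 probes and the 2 Il1b probes are given because each pair reads a different stretch of the same gene, and the Il17b and Tnf probes because these cytokines had positive mean ratios. For 3 of the probes only the leading 30 bases are printed. Sequences run 5′ to 3′ and no base is set in capitals.
Il18 probe A_44_P531414, first 30 bases: atcttctgcaacctccaggatcaggaaaaa
Il18 probe A_44_P161233: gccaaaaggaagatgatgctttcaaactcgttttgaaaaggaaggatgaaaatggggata
Il1b probe A_44_P230320, first 30 bases: aagtcaggtctctcagagccataagaaaac
Il1b probe A_43_P14911, first 30 bases: gctgaaaatgaagagtttcatattgtgtgg
Il17b probe A_42_P705083: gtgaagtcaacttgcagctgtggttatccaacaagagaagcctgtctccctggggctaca
Tnf probe A_43_P11513: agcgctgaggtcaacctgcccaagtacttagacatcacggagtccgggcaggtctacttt
The array file places the Il18 probes on rn4 at chr8:53927434-53927493 and chr8:53943005-53943064, and the Il1b probes at chr3:116964716-116964775 and chr3:116964465-116964524. The Il17b probe lies at chr18:57667477-57667536 and the Tnf probe at chr20:3662706-3662765. The position of the probes within exons or untranslated regions was not analysed here.

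The p75High channel had 22464 to 28062 probes per array well above background, and the p75Low channel 23044 to 26174. Of the 87 cytokine probes, 46 to 54 per array were well above background in p75High and 44 to 52 in p75Low. The gene of p75 itself, Ngfr, rose in p75High on every array, by 6.07, 6.17, 5.02 and 5.96 on the log2 scale in replicates 1 to 4 (limma adjusted p = 0.0262). Levels below are normalized log2 intensities of 1 channel, ratios are log2 of p75High over p75Low, errors are SD over 4 arrays, and adjusted p comes from limma with Benjamini-Hochberg adjustment over 22192 genes. A gene passed the test when its adjusted p was under 0.05. Whether the replicates were separate animals or cultures is not given in the labels. The p-values therefore measure only the spread between these samples, and 4 arrays limit the precision. In a simulation, which is only a rough guide to these data, the test found 0 of 50 genes changed 4-fold and 25 of 50 changed 64-fold. A gene that did not pass may therefore still differ.

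The comparison asks which of these signals and receptors differ between the sorted p75High and p75Low cells. Il18, the precursor of interleukin-18, fell by 5.27 on the log2 scale in p75High, and it was the single gene of the set that passed the test in either direction. Il1b had the second lowest mean ratio, at -4.81, and Il17b had the highest, at 2.65, and neither passed. Of the 73 genes, 45 had a probe that was well above background on 3 or more arrays in 1 of the channels, and were tested. Among these 45, the test called 0 as higher and 1 as lower and left 44 uncalled, where 0.311% of all 22192 genes were higher and 0.437% were lower. The 1 called gene makes 2.22% of the tested set, against 0.748% of all genes called in either direction. At an unadjusted p under 0.05, limma took 2 genes of the set as higher and 6 as lower, or 8 of 45, where 12.7% of all genes reached that level in either direction. Of the lower ones, Il6r and Il10 met the detection rule in p75Low alone, on 3 arrays there and 0 in p75High. The rule thus favoured a negative ratio for these genes, and they give no support for a direction.

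Most of the set had ratios near 0 or ratios that changed sign between arrays. Some ratios near 0 came from dim probes, such as those of Il1r1, Il1r2, Il1rn and Il5, with mean levels of 6.26 to 6.60. At such levels a ratio near 0 does not show equal expression. The median ratio of the 45 tested genes was -0.15, and that of all genes tested was -0.03. The mean ratio was negative for 64.4% of the 45 and for 51.4% of all genes. The ratio had the same sign on all 4 arrays for 10 of the 45, with 2 positive and 8 negative. That share is 22.2%, and over all genes it was 25.5%, of which 12.5% were positive and 13.0% negative. For 23 of the 45 the SD between arrays was over 1, and for 23 the mean lay within 0.5 of 0. The median SD was 1.04 in the set and 1.14 over all genes.

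**Figure D1:**
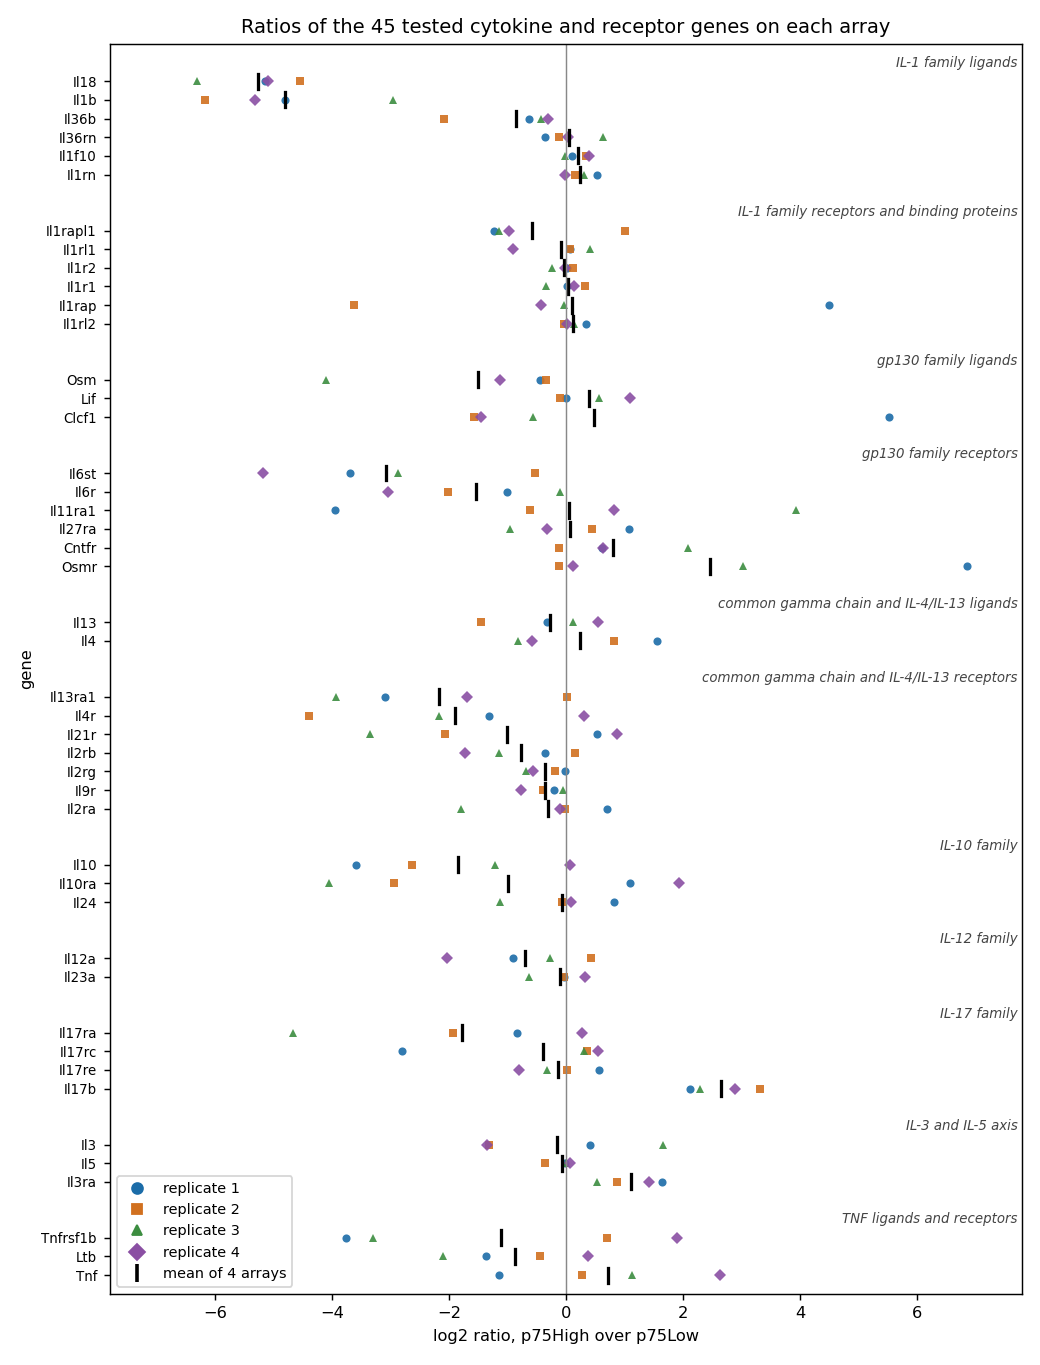
Log2 ratio of p75High over p75Low (x axis) of the 45 tested genes (y axis, grouped by family) on each of the 4 arrays, with a bar at the mean. The 4 points of Il18 lie between -6.30 and -4.54 and those of Il17b between 2.12 and 3.31, while most other genes scatter around 0 or spread over both signs.

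The ligands of the IL-1 family held the largest differences. Il18 had levels of 8.55, 7.36, 7.33 and 8.07 in p75High in replicates 1 to 4, against 13.69, 11.90, 13.64 and 13.17 in p75Low. The populations did not overlap, and the highest p75High level was well under the lowest p75Low level. The ratios were -5.14, -4.54, -6.30 and -5.10, with a mean of -5.27 ± 0.74 (n = 4, SE 0.394, limma adjusted p = 0.0262), a 38.6-fold difference. The other Il18 probe had levels of 8.90, 6.80, 6.03 and 8.10 in p75High, against 12.54, 11.93, 10.57 and 12.51 in p75Low. Its ratio was -4.43 ± 0.62 and it also passed when every probe was fitted on its own (limma adjusted p = 0.0287). So both stretches of Il18 gave lower signal in p75High on all 4 arrays. The call rests on having 4 arrays: without any 1 of the replicates the ratio of Il18 was -5.51 to -4.93 and the limma adjusted p was 0.105 to 0.138.

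The marker genes of microglia and macrophages fell in p75High beside Il18. Of 14 listed markers, 11 were tested, 8 of these were lower past the threshold and 0 were higher, and all 11 had a negative ratio on every array. Their median ratio was -4.58, and -4.62, -5.36, -5.25 and -4.89 on the arrays of replicates 1 to 4. The log2 of their summed signal was 12.76 to 13.40 in p75High and 17.66 to 18.37 in p75Low. None of the 11 was without signal in p75High, where 10 were well above background on all 4 arrays, against 11 in p75Low. They included Aif1, which encodes the microglial protein IBA1, at -5.36 ± 0.62, and Tyrobp, an adaptor of myeloid receptors, at -4.58 ± 0.77. Whether these cells account for the Il18 signal was not tested, and in such bulk samples fewer cells of a type and less RNA per cell cannot be told apart.

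Il1b encodes IL-1β, the best-known inflammatory cytokine of macrophages. Its brightest probe had levels of 7.34, 7.16, 6.95 and 9.69 in p75High, against 12.15, 13.33, 9.91 and 15.00 in p75Low. The populations did not overlap over all arrays, although the p75High level of replicate 4 came close to the p75Low level of replicate 3. The ratios were -4.81, -6.16, -2.96 and -5.31, with a mean of -4.81 ± 1.36 (n = 4, SE 0.604, limma adjusted p = 0.0676), which missed the threshold. The other Il1b probe, the mean of 10 spots, had levels of 7.09, 7.16, 7.01 and 9.25 in p75High, against 8.73, 10.05, 10.20 and 8.53 in p75Low. Here the populations overlapped, since replicate 4 had the higher signal in p75High. Its ratio was -1.75 ± 1.78 (limma adjusted p = 0.440), so the 2 probes of Il1b gave the same sign and sizes that differed by over 3 on the log2 scale. With the scanner's own ratios the brightest probe passed (-5.33, limma adjusted p = 0.0388), as it did when only probes well above background on all 4 arrays were tested (limma adjusted p = 0.0499). These 2 were the only passes among 13 alternatives. The median over its probes gave -3.28 (limma adjusted p = 0.0848). Without any 1 of the replicates the limma adjusted p of Il1b was 0.124 to 0.256.

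**Figure D2:**
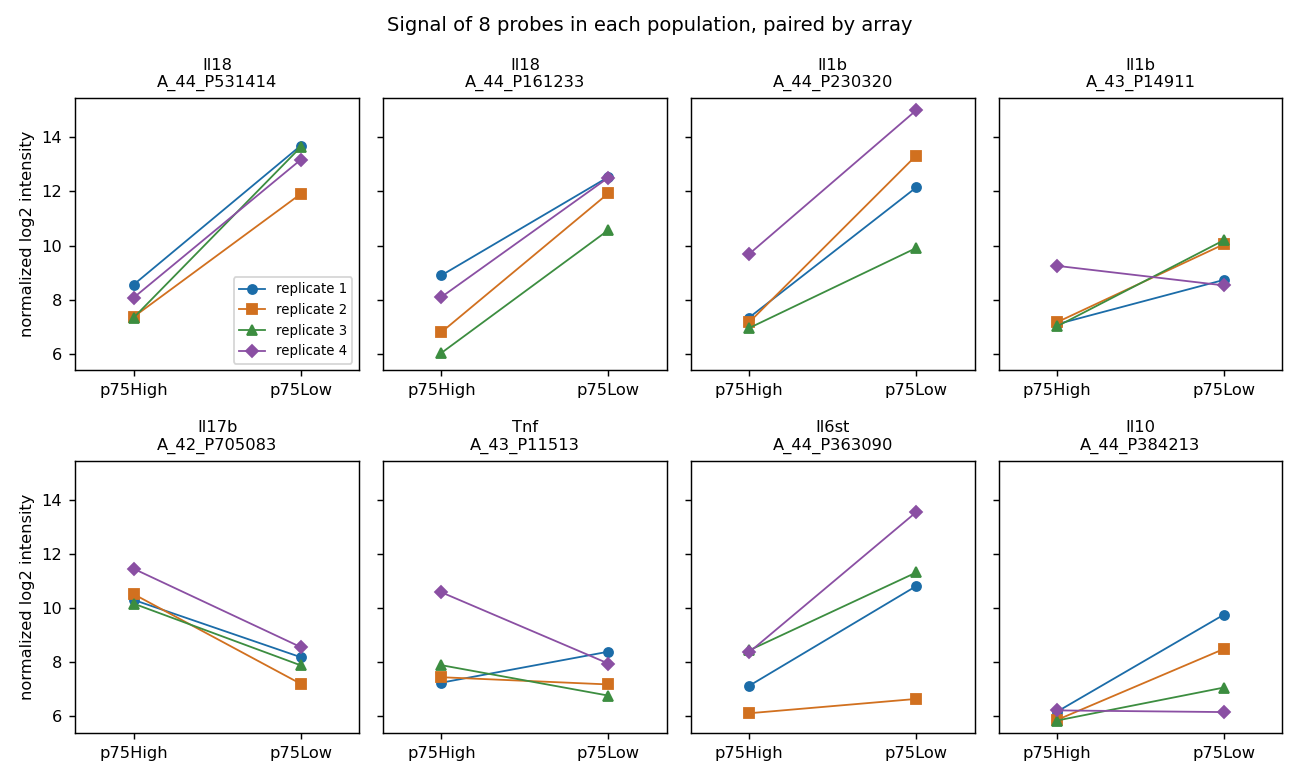
Normalized log2 intensity (y axis) of 8 probes of Il18, Il1b, Il17b, Tnf, Il6st and Il10 in p75High (left) and p75Low (right), with a line for each replicate. Both Il18 probes are lower in p75High on every line, the second Il1b probe and Tnf have lines that cross, and the p75High signal of Il10 stays near 6 throughout.

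Because both cytokine genes with the lowest ratios belong to the IL-1 family, the 250 bases before their start sites are shown, from the RefSeq promoter table of GRCr8, which holds 55 of the 73 genes. Capitals mark the matches found among 4 motifs searched on both strands, none of which overlapped another.
Il18 promoter, chr8:59801822-59802071, plus strand: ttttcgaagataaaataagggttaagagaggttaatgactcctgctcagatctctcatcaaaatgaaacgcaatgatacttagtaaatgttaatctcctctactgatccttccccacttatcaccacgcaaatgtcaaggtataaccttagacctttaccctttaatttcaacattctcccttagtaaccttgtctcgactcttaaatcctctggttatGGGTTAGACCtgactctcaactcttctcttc
Il1b promoter, chr3:137036582-137036831, minus strand: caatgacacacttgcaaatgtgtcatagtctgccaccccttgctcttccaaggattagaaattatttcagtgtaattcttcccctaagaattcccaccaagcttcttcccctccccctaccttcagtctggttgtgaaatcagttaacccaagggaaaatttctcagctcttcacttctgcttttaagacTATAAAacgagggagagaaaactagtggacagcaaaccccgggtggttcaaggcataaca
The Il18 window held 1 match to GGGNNNNNCC, a loose NF-kB pattern that 42.3% of 33469 promoters of this length held. The Il1b window held 1 match to TATAAA, the TATA box, which 12.9% of the promoters held. Neither window held GAGGAA, a core of the PU.1 motif found in 23.3% of promoters, or TGANTCA, an AP-1 motif found in 6.34%. These matches describe the letters alone and say nothing about binding in these cells.

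None of the other ligands of the family passed. Il36b, a ligand of the IL-36 receptor that the array file names Il1f8, had levels of 7.63, 6.92, 7.56 and 7.58 in p75High, against 8.26, 8.99, 7.99 and 7.89 in p75Low. The populations did not overlap, and replicate 2 was the farthest apart, but the ratio of -0.86 ± 0.82 did not pass (limma adjusted p = 0.471). Il1rn, the natural antagonist of the IL-1 receptor, had ratios of 0.53, 0.16, 0.30 and -0.03 by its kept probe (mean 0.24 ± 0.23, limma adjusted p = 0.722). Its other probe, which did not pass the filter on dim probes, read -3.03, -4.11, 0.04 and 0.22, with p75Low levels of 10.69 and 10.18 in replicates 1 and 2. The 2 probes of Il1rn therefore disagreed on those arrays. Il1f10, a further ligand of the family, was well above background on all 4 p75High arrays and on 0 p75Low arrays. It was dim in both, at 6.35 to 7.03 in p75High and 6.30 to 6.63 in p75Low. Its ratios were 0.11, 0.34, -0.01 and 0.40 (limma adjusted p = 0.754). Raising its p75Low signal to at least the lowest p75Low signal among probes well above background, array by array, left the mean difference at 1.16-fold. The same floor, taken in p75High, is used for Il6r and Il10 below. It hardly moved the folds, which without it were 1.16 for Il1f10, 2.92 for Il6r and 3.59 for Il10. Such a fold is a mean over 4 arrays and no minimum. Il1a, which encodes IL-1α, was well above background once, in p75High of replicate 2, and Il36a on no array.

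Receptors and binding proteins of the IL-1 family gave no call. Of 10 genes, 6 were tested, with 3 positive and 3 negative means between -0.59 and 0.12 and a median of 0.00, and with each array centred on its median in place of loess 1 of the 6 was negative. Il1r1, the signalling receptor of IL-1, was well above background on 3 p75High arrays and 1 p75Low array, with ratios of 0.02, 0.33, -0.34 and 0.14. Il1r2, its decoy receptor, had ratios of 0.02, 0.11, -0.24 and -0.01. The receptor pair for IL-18 was dim: Il18r1 was not well above background on any array, and Il18rap was so on 2 arrays in each population. Il18bp, the soluble inhibitor of IL-18, was well above background only in p75Low of replicate 4, where its level was 6.63 in p75High and 7.82 in p75Low.

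Il17b had the highest mean ratio of the set. It encodes a ligand of the IL-17 family that binds the receptor encoded by Il17rb. Its levels were 10.31, 10.52, 10.17 and 11.46 in p75High, against 8.19, 7.21, 7.89 and 8.57 in p75Low. The populations did not overlap on any array. The ratios were 2.12, 3.31, 2.28 and 2.90, with a mean of 2.65 ± 0.55 (n = 4, SE 0.341, limma adjusted p = 0.0703), a 6.28-fold difference that missed the threshold. It passed when the channels of an array were treated as unpaired samples (limma adjusted p = 0.0277) and in none of the other 12 alternatives. Its receptor gene Il17rb was well above background once, in p75High of replicate 1. Of 5 genes of the family, 4 were tested, and the means of the receptor genes Il17ra, Il17rc and Il17re were -1.78, -0.40 and -0.14, of which median centring turned 1 positive.

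Among receptors that use gp130, the signal of gp130 itself leaned to p75Low. Il6st had levels of 7.13, 6.12, 8.44 and 8.37 in p75High, against 10.82, 6.65, 11.32 and 13.55 in p75Low. Replicate 2 was dim in both populations and close to equal, and the populations overlapped there. The ratios were -3.68, -0.53, -2.88 and -5.18, with a mean of -3.07 ± 1.94 (limma adjusted p = 0.300). Il6r, the ligand-binding chain for IL-6, was not well above background on any p75High array and was so on 3 p75Low arrays. It was thus tested through p75Low alone. With the floor described for Il1f10, its mean signal was 2.87-fold lower in p75High, and the ratio did not pass (limma adjusted p = 0.386). Levels were 5.80 to 6.58 in p75High and 6.07 to 9.62 in p75Low. In replicate 3 they were near equal, at 5.97 in p75High and 6.07 in p75Low. Lifr, the LIF receptor chain, was not well above background on any array, with levels of 5.87 to 6.11 in p75High and 6.14 to 6.36 in p75Low. Over the 6 tested of 7 receptor genes the median ratio was 0.05, and 0 passed.

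The ligands of that group were uneven. Osm, which encodes oncostatin M, had levels of 7.25, 7.28, 7.56 and 8.03 in p75High, against 7.70, 7.63, 11.66 and 9.15 in p75Low. Its ratio was negative on all 4 arrays but mainly on replicate 3, at -0.45, -0.35, -4.11 and -1.12 (mean -1.51 ± 1.77, limma adjusted p = 0.481). Lif, a cytokine that glia and many other cells make, was well above background throughout, with ratios of -0.01, -0.11, 0.56 and 1.09 (mean 0.39 ± 0.55, limma adjusted p = 0.649). Il6 was well above background once, in p75High of replicate 1, at 7.89 in p75High and 6.12 in p75Low, and its levels on the other arrays were 6.06 to 6.10 in p75High and 6.08 to 6.14 in p75Low. Cntf, the ciliary neurotrophic factor of Schwann cells, was not well above background on any array. Its 10 spots averaged 6.04 to 6.13 in p75High and 6.06 to 6.38 in p75Low.

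Receptors of the common gamma chain and IL-4/IL-13 group had mean ratios below 0 in each of the 7 genes tested out of 9, also with no background correction, with the scanner's own ratios and with median centring. None passed, and the median was -0.77, with means from -2.17 to -0.30. These are means of the brightest probes. The lowest was that of Il13ra1, whose other kept probes had means of 0.33 and -1.07. Il2rg, the common gamma chain itself, was among the most even genes of the group, with levels of 9.76, 10.08, 10.43 and 10.98 in p75High, against 9.78, 10.26, 11.11 and 11.55 in p75Low. The populations overlapped, and the ratio of -0.36 ± 0.31 did not pass (limma adjusted p = 0.616). Il9r, the IL-9 receptor, was also negative on all 4 arrays, at -0.20, -0.39, -0.06 and -0.77 (mean -0.35 ± 0.31, limma adjusted p = 0.625). The remaining receptors of the group changed sign between arrays. The ligands were mostly undetected: Il2, Il7, Il9 and Il21 were not well above background on any array, Il15 was so once, and Il4 and Il13 had means of 0.24 and -0.28.

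Il10, the main anti-inflammatory interleukin, was not well above background in p75High on any array and was so in p75Low on 3. It was thus tested through p75Low alone. Its levels were 6.18, 5.87, 5.85 and 6.22 in p75High, against 9.76, 8.50, 7.07 and 6.16 in p75Low. Replicate 4 showed equal, dim signal in both populations. With the floor described for Il1f10, the mean signal of Il10 over all 4 arrays was 3.56-fold lower in p75High. The difference did not pass (limma adjusted p = 0.389). The measured ratio of -1.84 moved to -1.26 without replicate 1 and to -2.48 without replicate 4. Of 5 genes of its family 3 were tested and had means below 0, of which median centring turned 1 positive. Il22ra2, the soluble inhibitor of IL-22, was not well above background on any array, and Il20ra was so once, in p75High of replicate 1. The IL-12 family had 2 of 4 genes tested, with means of -0.69 for Il12a and -0.09 for Il23a, the partner chains of IL-12 and IL-23, and 1 of these turned positive with the scanner's own ratios and with median centring. Il12b, the chain that both cytokines share, was not well above background on any array.

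In the IL-3 and IL-5 group, Il3ra was the second gene of the set with a positive ratio on every array. It encodes the IL-3 receptor alpha chain, and its levels were 8.24, 7.87, 8.03 and 9.38 in p75High, against 6.61, 7.00, 7.50 and 7.95 in p75Low. The populations overlapped slightly across arrays, although p75High was the higher channel within each. The ratios were 1.64, 0.87, 0.53 and 1.42, with a mean of 1.11 ± 0.51 (limma adjusted p = 0.321). Il3 and Il5 had means of -0.15 and -0.07, which median centring made positive, and Il5ra was not well above background on any array.

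Tnf, which encodes the cytokine TNF, did not follow Il18. Its levels were 7.25, 7.45, 7.90 and 10.59 in p75High, against 8.39, 7.18, 6.77 and 7.96 in p75Low, each the mean of 10 spots. Replicate 1 was higher in p75Low and the other 3 replicates in p75High, most of all replicate 4. The ratios were -1.15, 0.27, 1.12 and 2.63, with a mean of 0.72 ± 1.58 (limma adjusted p = 0.673). Tnfrsf1b, the TNF receptor found mainly on immune cells, split the arrays, with -3.76 and -3.30 in replicates 1 and 3 and 0.71 and 1.90 in replicates 2 and 4 (mean -1.11 ± 2.84, limma adjusted p = 0.699). Tnfrsf1a, the TNF receptor that most cell types carry, was not well above background on any array, at 6.01 to 6.28 in p75High and 6.12 to 6.31 in p75Low. Ltb, which encodes lymphotoxin beta, had a mean of -0.88 ± 1.08, and Lta was not well above background on any array.

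Most of the tested genes gave signal above background in both populations. Of the 45 tested genes, 31 were well above background in both populations on all 4 arrays. Of the 28 genes that were not tested, 15 were not well above background on any array in either population, and 13 were so on at least 1 array. The 15 were Cntf, Cxcr1, Il12b, Il18r1, Il2, Il21, Il22ra2, Il36a, Il5ra, Il7, Il7r, Il9, Lifr, Lta and Tnfrsf1a. A probe not well above background gives only an upper bound on its signal. Some untested genes were bright on 1 array alone and are named here after their values were seen. Il16 had levels of 7.47 in p75High and 13.62 in p75Low in replicate 3, Il13ra2 had 7.33 in p75High and 11.90 in p75Low in replicate 4, and Il11 had 11.91 in p75High and 13.14 in p75Low in replicate 3. On their remaining arrays these 3 genes were not well above background in either population. Il1rapl2, a brain protein of the IL-1 receptor family, had levels of 8.61 in p75High and 6.19 in p75Low in replicate 1, and 12.26 in p75High and 6.51 in p75Low in replicate 3, and was not well above background on the other arrays. Cxcr2, a chemokine receptor that the array file names Il8rb, was well above background on 2 p75High arrays and 0 p75Low arrays, and Il12rb2, an IL-12 receptor chain, on 1 array in each.

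**Figure D3:**
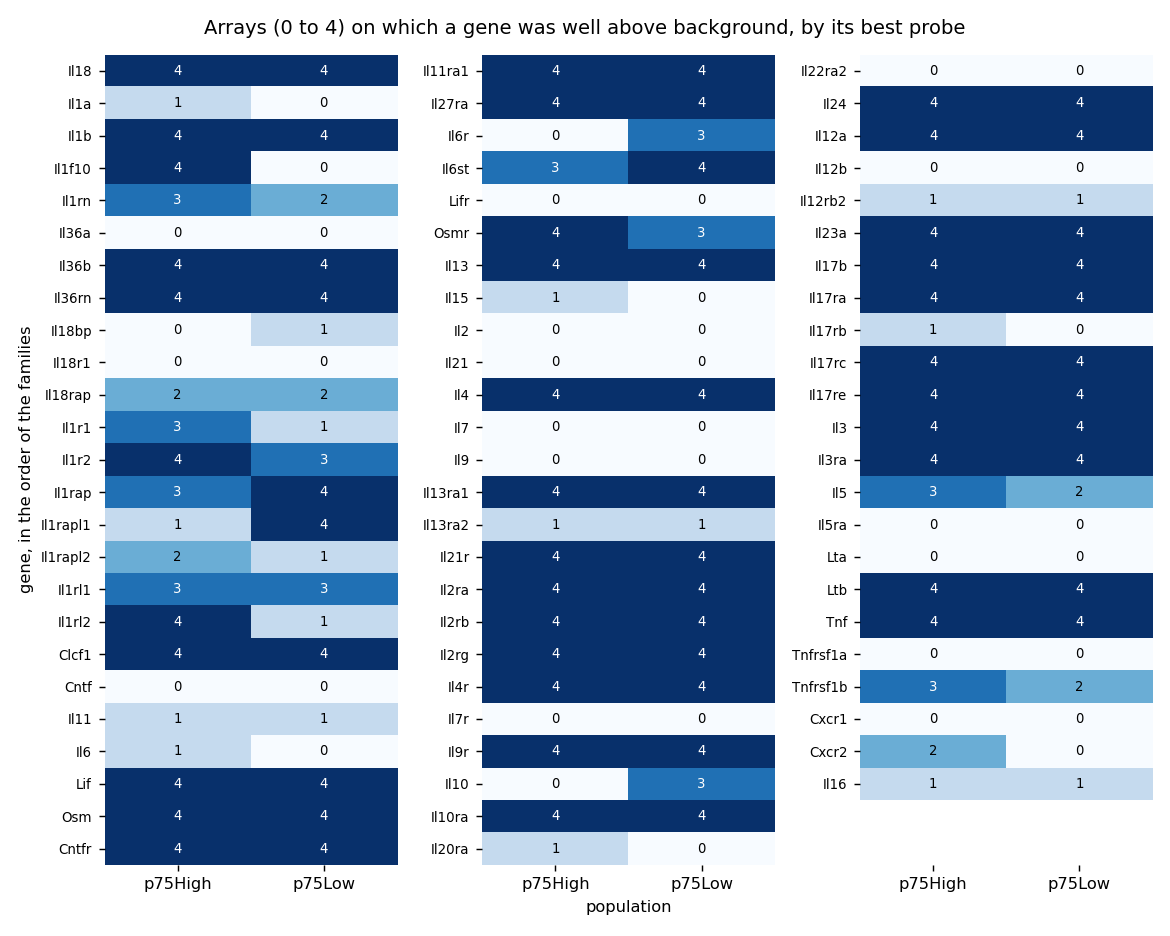
Number of arrays, 0 to 4, on which the best probe of each of the 73 genes was well above background in p75High (left column of each panel) and p75Low (right column), with darker cells for more arrays. The 15 rows with 0 in both columns include Tnfrsf1a, Lifr and Cntf, and Il10 and Il6r show 0 in p75High beside 3 in p75Low.

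Genes with more than 1 probe show how far a ratio belonged to the probe. The array held 12 such genes, and 5 had more than 1 probe past the filter. The means of the Il18 probes were close. Those of the Il1b probes had the same sign and differed in size, while in replicate 4 the probes had opposite signs and in replicate 3 they were close. The remaining 3 genes, named after their values were seen, were Il17ra, Il13ra1 and Clcf1. The Il17ra probes start 71 bases apart and read -0.83, -1.92, -4.66 and 0.28 by the brightest and -1.69, -3.13, -5.21 and -0.12 by the other, so the arrays kept their order. The 3 kept probes of Il13ra1, a receptor chain for IL-13, had means of -2.17, 0.33 and -1.07. The Clcf1 probes were opposed on replicate 1, at 5.51 by the brightest and -3.62 by the other, and within 2 of each other on the remaining arrays.

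**Figure D4:**
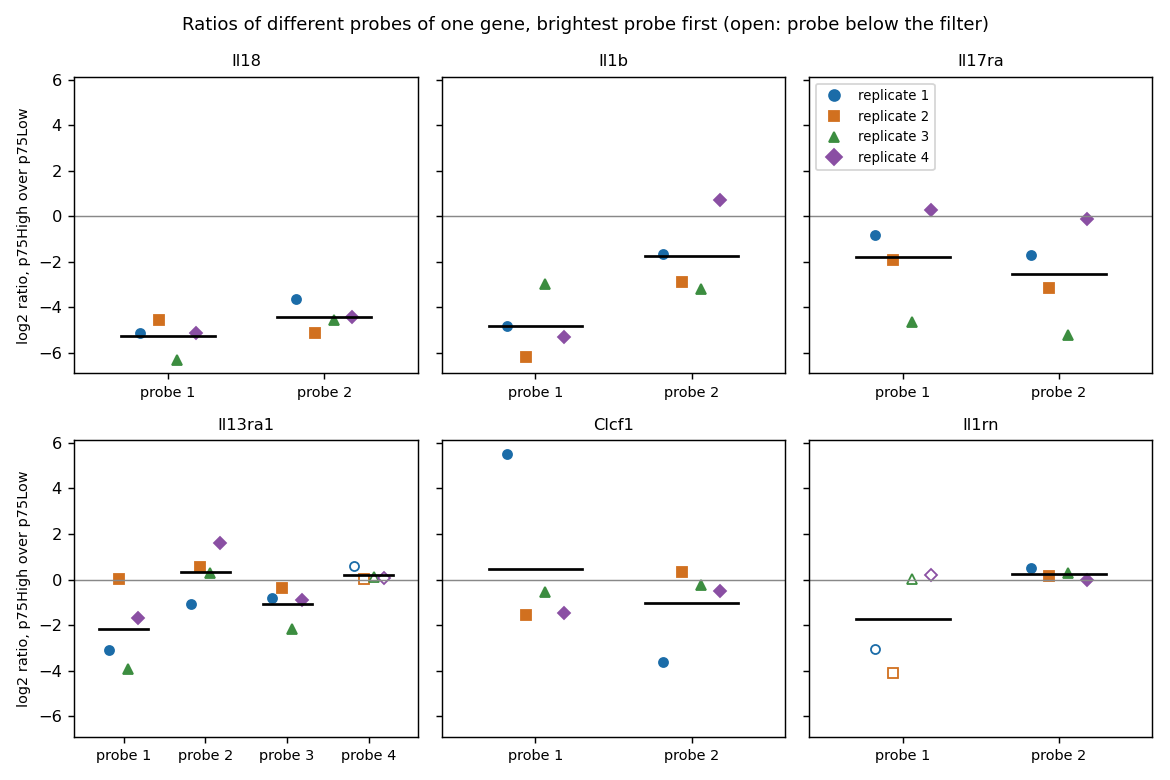
Log2 ratio of p75High over p75Low (y axis) of each probe of 6 genes with several probes, with points for the 4 arrays, a bar at the mean and open points for probes below the filter. The Il18 probes average -5.27 and -4.43, the Il1b probes -4.81 and -1.75, and the Clcf1 probes lie on opposite sides of 0 in replicate 1.

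Genes that process these cytokines or carry their signals gave no call. Of 30 listed kinases, adaptors, suppressors and processing enzymes, 21 were tested, 0 were higher and 0 were lower, and at an unadjusted p under 0.05 limma took 2 as higher and 2 as lower. The median ratio was -0.69, and with the scanner's own ratios 1 gene passed as lower. Nlrp3 and Casp1, the inflammasome sensor and the protease that activates IL-1β and IL-18, had the lowest means, and Ripk1 and Traf6, a kinase and an adaptor of TNF and IL-1 receptor signalling, the highest. These 4 reached an unadjusted p under 0.05 and, like Socs3, are named after their values were seen. Nlrp3 read -2.07, -4.11, -2.26 and -3.26 (mean -2.92 ± 0.95, limma adjusted p = 0.120), and Casp1 read -5.03, -3.37, -4.46 and 0.23 (mean -3.16 ± 2.36, limma adjusted p = 0.335). In the opposite direction, Ripk1 read 2.95, 4.82, 4.73 and -0.03 (mean 3.12 ± 2.27, limma adjusted p = 0.326), and Traf6 read 2.72, 1.22 and 2.51 in replicates 1, 3 and 4, with no usable reading in replicate 2 (mean 2.15 ± 0.81, n = 3, limma adjusted p = 0.295). Well above background on p75High and p75Low arrays respectively were Nlrp3 on 2 and 4, Casp1 on 2 and 3, Ripk1 on 3 and 1, and Traf6 on 4 and 3. Where a channel was not well above background, the size of the ratio is uncertain. Nlrp3 and Casp1 passed the filter on dim probes through p75Low alone, and Ripk1 through p75High alone. The filter thus favoured the direction that each of them showed. Socs3, a feedback inhibitor of gp130 signalling, was negative on all 4 arrays, with a mean of -0.62 ± 0.24 (limma adjusted p = 0.445).

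Markers of other cell types that could be present gave 2 calls. Of 12 tested genes of ensheathing and Schwann glia, 1 was higher (Ngfr) and 0 were lower. Ngfr encodes the protein used for the sort, so its call follows from the sort and gives no further support. With Ngfr included, the median was 1.57 and 11 of the means were positive. At an unadjusted p under 0.05 limma took 4 as higher, Ngfr among them, and 0 as lower. The log2 summed signal, also with Ngfr, was 15.24 to 15.69 in p75High and 12.23 to 13.92 in p75Low. Of 7 tested lymphocyte markers 1 was lower, Cd4, at -5.71 ± 0.57 (limma adjusted p = 0.0262), which rat macrophages also carry, and the median was 0.06. Of markers named after their values were seen, Ms4a1, a defining marker of B cells, was not well above background on any array. The T cell gene Cd3e was well above background on 1 p75High array and 2 p75Low arrays. Others of the list went the other way: Cd3d, Cd79b, Nkg7 and Cd247 were well above background on all 4 arrays in both populations. Cd8a was so on 4 p75High and 2 p75Low arrays, and Cd3g on 3 and 2. Cd247 had a mean of 1.95 ± 1.40 (limma adjusted p = 0.342). At an unadjusted p under 0.05 limma took 1 lymphocyte marker as higher and 1 as lower. None of the 7 fibroblast, 4 mast cell and granulocyte and 6 endothelial markers tested passed, with medians of -0.89, 0.03 and 0.93. The summed signal of the fibroblast markers ran against their median, with a log2 of 15.89 to 16.36 in p75High and 13.71 to 15.10 in p75Low, and their means ranged from -2.71 to 4.80. At an unadjusted p under 0.05 limma took 2 fibroblast, 1 mast cell or granulocyte and 2 endothelial markers as higher, and 2 fibroblast and 1 mast cell or granulocyte markers as lower. Their part in the cytokine ratios was not tested.

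**Figure D5:**
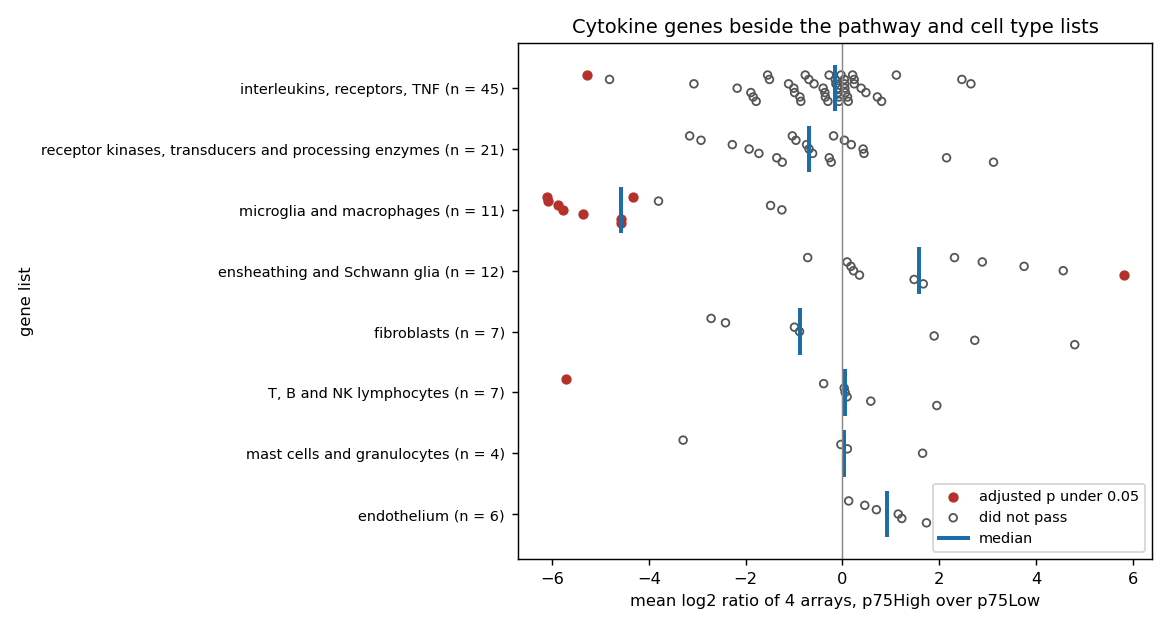
Mean log2 ratio of p75High over p75Low (x axis) of the tested genes of 8 lists (rows), with filled points for genes past the threshold, open points for the others and a bar at each list's median. The 45 cytokine and receptor genes have a median of -0.15 with Il18 as the filled point, and the 11 microglia and macrophage markers have a median of -4.58 with 8 filled points.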

How the data were processed

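Gene expression in paired p75High and p75Low cells was read on 4 two-colour arrays of Agilent rat design 014879 on 1 slide, per the file headers, with Feature Extraction 10.5.1.1 (10.5 per the submitters' processing notes). The deposited intensity values are raw: per the file headers, each channel has a spot's mean signal and the median signal of the background around it. The deposited log10 ratios put red over green after Feature Extraction's own background subtraction, detrending and dye normalization, per the file headers. The value table that the authors supplied repeats these log10 ratios (maximum difference 0, median 0). The scanner's deposited detection, saturation and outlier flags are 0 or 1 per spot, per the file headers.

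Intensities were background-corrected by normexp (offset 50) and normalized by loess (span 0.3) in limma 3.58.1 under R 4.3.3. The log2 ratio was computed from the deposited intensities. The 1639 control spots and outlier-marked spots had weight 0, the 1112 outlier readings of 173516 (0.641%) were left out, and the repeat spots of a probe were averaged. Saturated spots numbered 0. A probe counted as well above background when at least 0.5 of its spots were, and was kept when 1 channel met this on 3 or more of the 4 arrays. A gene was represented by its brightest kept probe. Levels are those normalized intensities after quantile scaling of the average brightness between arrays.

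Ratios were tested against 0 with lmFit and eBayes, two-sided, with Benjamini-Hochberg adjustment over 22192 genes at 0.05. The script was also run on 4 artificial arrays of 22079 genes, in which 50 genes were changed at each fold. It recovered 0 of 50 at 2-fold, 0 at 4-fold, 15 at 16-fold and 25 at 64-fold, and 1 unchanged gene passed. The noise of each gene had its observed SD, and all other genes were left unchanged. The real arrays may differ in both, so these shares are only a rough guide. The labels state that samples were paired. After removal of group means the channels of 1 array correlated at 0.126, 0.0609, 0.0673 and 0.26. Channels of different arrays correlated at 0.0507 at most. The channels of 1 array also share its spots, so these values cannot test the pairing of the samples. Names were updated through a RefSeq table of GRCr8, which held 10835 of 41012 probes under their accession, 5201 under their symbol and 3488 under a former symbol. The remaining 21488 kept the name in the file. Probe coordinates are those of the array file, whose header names rn4.

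The genes and lists were chosen with earlier results of these data known. The text names Ngfr, each gene of the set past the threshold or with 1 sign on every array, and Il1b, Il1rn, Il6, Il10, Il18, Il6st, Tnf, Tnfrsf1a, Tnfrsf1b, Lif, Lifr and Cntf. Further genes stand with their detection or as examples of a family, and some were named after their values were seen, as said beside them. Marker and pathway genes past the threshold are named, at most 6 a list, and those named without passing were chosen after their values were seen. Alternatives were no background correction, the scanner's own ratios, median centring, no filter and a stricter filter, outlier spots kept, the median of a gene's probes, each probe on its own, unpaired channels, and each replicate left out.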

Additional observations from a re-analysis of the deposited data

Results flagged for a closer look

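Ratios of 65 sets of 4 array values were examined for an array far from the other 3, taking in the 45 tested genes and 20 list medians, and 4 stood out. Chance alone marks about 1 set in 20. Clcf1, a gp130 ligand, read 5.51 in replicate 1 by its brightest probe, against -1.57 to -0.56 on the other arrays, while its other probe read -3.62 in replicate 1. Il17rc, a receptor of the IL-17 family, read -2.80 in replicate 1, against 0.31 to 0.54 on its other arrays. Il1rapl1, an accessory protein of the IL-1 receptor family, read 1.01 in replicate 2, the only array on which it was well above background in p75High, while the remaining arrays gave -1.24 to -0.98. The gp130 receptors had a median of 1.00 in replicate 3, with -0.33 to -0.11 on the remaining arrays. The cause of these was not tested.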

How the results depend on the processing

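The call of Il18 held in 9 of 13 alternatives and was lost without each replicate in turn, where 0 genes of the set passed in either direction (1 to 2 higher and 3 to 5 lower at an unadjusted p under 0.05 by limma). The same left 0 genes higher and 0 lower among all genes tested (811 to 1155 higher and 1022 to 1219 lower at an unadjusted p under 0.05 by limma), and Ngfr kept a ratio of 5.68 to 6.07 at a limma adjusted p of 0.0964 to 0.138. With all 4 arrays 69 genes were higher and 97 lower. These counts were 111 and 154 with the scanner's own ratios, 37 and 52 with no filter on dim probes, and 152 and 156 with no replicate block, the unpaired treatment of the channels. In the set, dropping the replicate block made 1 gene higher (Il17b), and 2 were lower with the scanner's own ratios and with the stricter filter, as Il1b joined Il18. The median of all genes was 0.0138 with no background correction, 0.0316 with the scanner's own ratios, 0.13 with median centring and -0.0037 with no filter, and -0.0355 to -0.0136 with 1 replicate left out. The median of the set was 0.0003 with median centring and -0.37 to -0.15 with 1 replicate left out, the lowest without replicate 1. Il1rn turned to -1.72 with no filter, because its other probe, left out by the filter, was then the brightest. Of 191 values of 15 named genes under the alternatives, 183 kept direction and side of the threshold, and the rest are those of Il18, Il1b, Il17b and Il1rn given here. The causes were not tested beyond the fewer arrays or other probes that an alternative itself brings. Signal over background limits the dim genes, since a probe not well above background in a population gives a bound and no level there. The PCR amplification and the lack of a dye exchange were not corrected for.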

Other observations

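The arrays differed in how many genes of the set were far from 0. Below -2 on the log2 scale were 8, 9, 11 and 5 of the 45 tested genes in replicates 1 to 4, and above 2 were 4, 1, 4 and 2. The share below -2 was 17.8%, 20%, 24.4% and 11.1%, against 12.6%, 15%, 11.1% and 12.1% of all genes. The share above 2 was 8.89%, 2.22%, 8.89% and 4.44%, under that of all genes on every array, which was 12%, 10.7%, 13.3% and 7.85%. These differences were not tested. Between the arrays 6 of the genes had an SD over 2.5, and those below were named after their values were seen.

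Osmr, the oncostatin M receptor chain, was read at 14.07, 6.34, 9.63 and 7.69 in p75High, against 7.22, 6.47, 6.61 and 7.58 in p75Low. It was bright in p75High in replicates 1 and 3 and near equal in replicates 2 and 4 (mean 2.47 ± 3.25, limma adjusted p = 0.501). Il11ra1, the IL-11 receptor chain, had levels of 8.51, 8.80, 13.06 and 10.14 in p75High, against 12.45, 9.41, 9.14 and 9.32 in p75Low, so that replicates 1 and 3 were opposed. Il1rap, the accessory chain of the IL-1 receptor, had levels of 10.98, 6.48, 7.10 and 6.30 in p75High, against 6.49, 10.09, 7.13 and 6.72 in p75Low, with replicates 1 and 2 opposed. Il10ra, the IL-10 receptor chain, had ratios of 1.09, -2.93, -4.05 and 1.93, and Il21r, the IL-21 receptor, had ratios of 0.53, -2.07, -3.35 and 0.87. Both were lower in p75High in replicates 2 and 3 and higher in replicates 1 and 4. Clcf1 and Tnfrsf1b complete the 6, and Il21r, with an SD of 2.04, is not among them.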
